A study of Mus musculus with 47 samples.

Results

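The vesicular glutamate transporters Slc17a7 (VGLUT1), Slc17a6 (VGLUT2) and Slc17a8 (VGLUT3) were followed across brain RNA-seq libraries of 3xTg mice fed a Control diet or a diet low in a single branched-chain amino acid. The 3 genes were taken by symbol and Ensembl identifier from the count tables of both sexes, which hold 55416 genes. All 3 had at least 1 count in every library, so each was kept by the filter on low values in both sexes. The comparisons address whether a diet low in isoleucine (IleR), in leucine (LeuR) or in valine (ValR) went with other levels of the family's RNA, and whether the sexes differed in this.

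The mice were homozygous for human APP with the Swedish mutation, mutant human tau and mutant presenilin 1, with the APP and tau transgenes under the neuronal Thy1 promoter. Every group, Control included, carried these alleles, and no non-transgenic library was analysed here. Mice of both sexes entered the diets at 6 months of age and stayed on them for 9 months. The groups held 4 Control, 3 IleR, 3 LeuR and 4 ValR libraries from males and 6 Control, 5 IleR, 6 LeuR and 6 ValR libraries from females, each named below by its diet and its number in the labels. A further 10 labelled male libraries were not analysed here.

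Library totals ran from 10672599 to 25722333 counts. The labels name brain as the source tissue, but their extraction protocol names liver. The study's methods give the left hemisphere as the source of the RNA, and its results speak of the whole brain. In the files, 8 pan-neuronal genes summed to between 3056 and 5844 CPM (counts per 1000000 counts of the TMM-scaled library) in every male and to between 3423 and 5012 CPM in every female library. Genes of the X and Y chromosomes matched the labelled sex in all 37 libraries, and the 73 pairs of libraries within groups differed by more than sampling noise. The study's methods state that mice were assigned to diets by cage, so libraries of the same diet may come from cage mates. Nothing in the labels ties a library to a litter or cage, so p-values measure the spread between these libraries, which may in part be technical. Because whole tissue was measured, fewer cells of a type and less RNA per cell cannot be told apart.

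Glutamate is loaded into synaptic vesicles by these 3 proton-driven transporters, and the transporter a neuron uses marks its kind. Slc17a7 is the main form in excitatory neurons of the cerebral cortex and hippocampus and in cerebellar granule cells, and Slc17a6 is the main form in the thalamus, hypothalamus and brainstem. Slc17a8 is found in few neurons, among them cholinergic interneurons of the striatum, some serotonin neurons and some cholecystokinin interneurons, many of which also release another transmitter.

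Slc17a7 (ENSMUSG00000070570) lies on the forward strand at chr7:45163949-45176142 and Slc17a6 (ENSMUSG00000030500) on the same strand at chr7:51622006-51671119, both in GRCm38, while Slc17a8 (ENSMUSG00000019935) lies on the reverse strand at chr10:89574020-89621253. The 3 genes have 5392, 5399 and 4720 bases of annotated exon, and no exon of another annotated gene overlaps them. The longest open reading frame in the first-numbered coding transcript of the annotation (GENCODE M21) was 1683 bases for Slc17a7, 1749 for Slc17a6 and 1806 for Slc17a8. Aligned coding sequences were 68.7% identical between Slc17a7 and Slc17a6, 68.4% between Slc17a6 and Slc17a8 and 64.9% between Slc17a7 and Slc17a8. The longest stretches that 2 members share base for base are given here because a read inside one could be counted for either gene.
Slc17a7 and Slc17a6: AACCTGGGCGTGGCCATCGTG
Slc17a6 and Slc17a8: TCATGAGCGGCCTCGGCTTCTGCAT
Slc17a7 and Slc17a8: GGTTCCTATGCTGGGGC
These stretches are 21, 25 and 17 bases long. All 37 deposited values of each member were whole numbers, which is what reads assigned to 1 gene give.

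The 250 bases before the RefSeq start of the 2 more abundant members are shown because the ratio between these genes is compared among the diets later (RefSeq, GRCm38.p6, forward strand, E-boxes of the form CANNTG in capitals).
Slc17a7, chr7:45163671-45163920: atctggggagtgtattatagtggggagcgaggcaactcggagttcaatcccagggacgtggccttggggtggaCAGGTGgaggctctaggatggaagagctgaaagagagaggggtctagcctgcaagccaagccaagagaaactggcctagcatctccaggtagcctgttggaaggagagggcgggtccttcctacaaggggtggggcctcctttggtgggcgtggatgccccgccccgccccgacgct
Slc17a6, chr7:51621580-51621829: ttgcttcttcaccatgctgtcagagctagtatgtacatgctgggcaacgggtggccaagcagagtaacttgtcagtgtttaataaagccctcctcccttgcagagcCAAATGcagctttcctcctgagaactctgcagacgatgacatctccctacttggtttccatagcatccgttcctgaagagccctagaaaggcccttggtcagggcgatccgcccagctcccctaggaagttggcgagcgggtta
Each window held 1 E-box, a motif found in 66.2% of the 32851 windows of the same length before mouse genes. Slc17a6 has a further RefSeq start that is not shown. The window of Slc17a7 held 3 matches to GGGCGG on either strand and that of Slc17a6 held 1, against at least 1 in 32.7% of all windows. These matches are a description of the letters and were not tested as binding sites.

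Per kilobase of exon, Slc17a7 was the most abundant member in Control-fed males at 192 ± 68.1 CPM per kilobase (SD, n = 4), followed by Slc17a6 at 16.8 ± 18.4 and Slc17a8 at 0.827 ± 0.655. Control-fed females had the same order on this scale, with 177 ± 64.9 for Slc17a7, 11.5 ± 14.8 for Slc17a6 and 1.17 ± 0.959 for Slc17a8 (SD, n = 6). Slc17a8 was thus a minor form in both sexes, and it took at most 3.31% of the summed per-kilobase level of the family in any library. In IleR-fed males the per-kilobase levels were 45.5 ± 13.0 for Slc17a7 and 30.2 ± 5.33 for Slc17a6 (SD, n = 3). LeuR-fed males had 32.7 ± 32.4 for Slc17a7 and 35.7 ± 12.5 for Slc17a6 (SD, n = 3), so the order of the 2 main members was not separated beyond their spread in this group. In ValR-fed males the levels were 53.4 ± 15.1 for Slc17a7 and 24.0 ± 8.19 for Slc17a6 (SD, n = 4). The plot of CPM by library shows the same values before division by length.

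**Figure D1:**
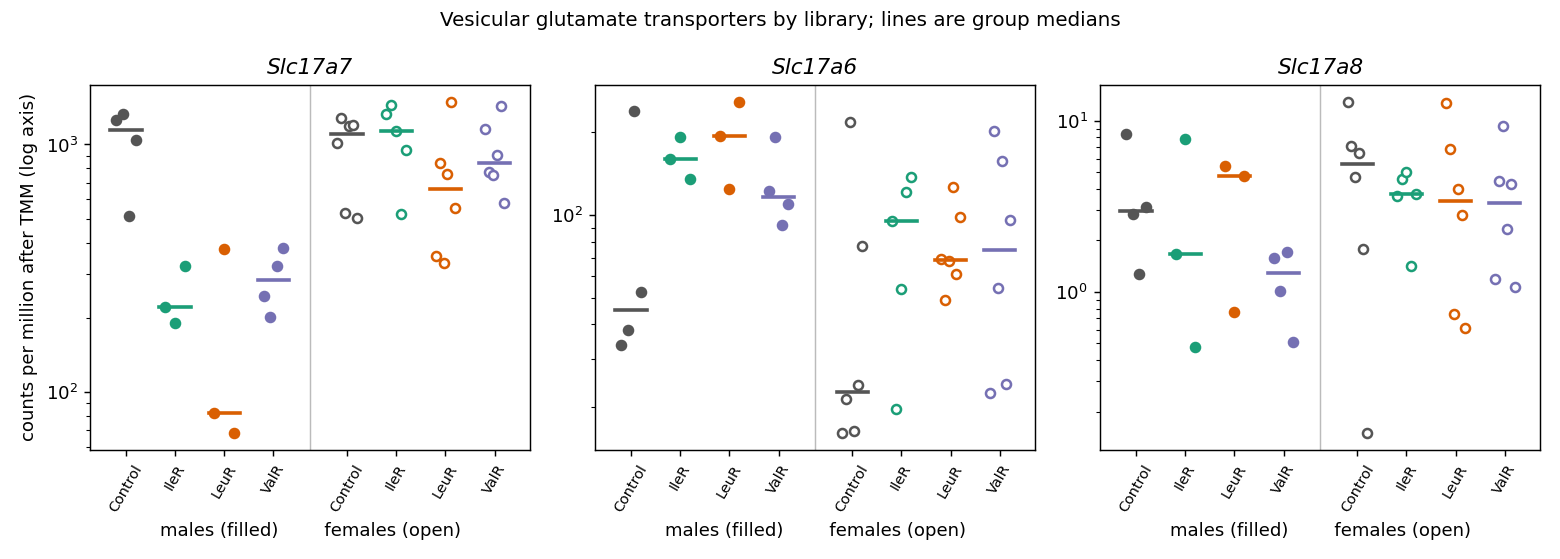
CPM of each transporter in every library on a log axis, by diet, with males filled, females open and a line at each group's median. All 10 restricted males lie below the lowest Control-fed male for Slc17a7, while the diets overlap for the other 2 genes and for all 3 genes in females.

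In males, Slc17a7 RNA was lower under all 3 restricted diets. The 4 Control-fed males had 1253 (Control 1), 1325 (Control 3), 512 (Control 4) and 1046 CPM (Control 5). IleR-fed males had 221 (IleR 13), 190.1 (IleR 14) and 324 CPM (IleR 17). LeuR-fed males had 82.7 (LeuR 19), 378 (LeuR 20) and 68.3 CPM (LeuR 21), so 2 of the 3 libraries of this group were the lowest of all males. ValR-fed males had 245 (ValR 7), 200.4 (ValR 9), 324 (ValR 10) and 383 CPM (ValR 12). No restricted library reached the lowest Control value, that of Control 4. Complete separation from Control was seen for 29.3%, 17.7% and 26.3% of the genes tested in the IleR, LeuR and ValR comparisons, and with the diet below Control for 14.5%, 9.48% and 13.6%.

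The fall in Slc17a7 passed the quasi-likelihood test of edgeR under each diet, with p-values adjusted after Benjamini and Hochberg over 22197 genes. The edgeR log2 fold change in IleR-fed males was -2.08 (SE 0.54, adjusted p = 0.0204), which is 4.22-fold lower. In LeuR-fed males the edgeR estimate was -2.55 (SE 0.55, adjusted p = 0.0146), or 5.87-fold lower, and in ValR-fed males -1.84 (SE 0.48, adjusted p = 0.0140), or 3.59-fold lower. Of all genes tested, 8.67% in IleR, 6.33% in LeuR and 12.4% in ValR were called lower, and 15.3%, 10.1% and 23.5% were called in either direction, so the call itself was not rare. The 3 comparisons share the same 4 Control libraries. In edgeR fits with a library left out, the IleR call was lost without Control 3 (adjusted p = 0.0522), IleR 13 (0.0711) or IleR 14 (0.0926), and the LeuR call was lost without LeuR 19 (0.0686) and in a fit of the LeuR and Control groups alone (0.100), while the ValR call passed without each library in turn. Without LeuR 20, the only LeuR library above 100 CPM, the LeuR log2 fold change was -3.78.

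Slc17a6 in males pointed the other way but did not pass the test. Control-fed males had 33.8 (Control 1), 38.2 (Control 3), 239 (Control 4) and 52.5 CPM (Control 5). The level in Control 4 was thus far above the other 3 and within the range of the restricted males. IleR-fed males had 161, 193 and 136 CPM in IleR 13, 14 and 17, and LeuR-fed males had 194, 124 and 259 CPM in LeuR 19, 20 and 21. ValR-fed males had 123, 193, 92.3 and 109 CPM in ValR 7, 9, 10 and 12. The edgeR log2 fold changes were 0.84 (SE 0.56, adjusted p = 0.349) for IleR, 1.08 (SE 0.56, adjusted p = 0.235) for LeuR and 0.51 (SE 0.53, adjusted p = 0.543) for ValR.

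This result for Slc17a6 turned on Control 4. That library is singled out here by its own Slc17a6 level. Without it, the edgeR log2 fold changes of 1.98 (SE 0.31, adjusted p = 0.000774), 2.22 (SE 0.31, adjusted p = 0.000528) and 1.64 (SE 0.29, adjusted p = 0.00132) for IleR, LeuR and ValR passed the threshold. In that fit 8.8%, 7.9% and 11.7% of the genes tested were called higher and 10.7%, 9.75% and 13.1% lower, among them Slc17a7 under each diet. Nothing in the labels sets Control 4 apart, so the values with it are the main ones. Of 10 markers of the thalamus, a region rich in Slc17a6, 2 were called higher and 1 lower in IleR, 3 and 1 in LeuR, and 1 and 1 in ValR in the fit without Control 4. With all 14 males these counts were 1 and 1, 1 and 0, and 2 and 2, beside 6.63%, 3.81% and 11.1% of all genes called higher and the shares called lower given above.

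Slc17a8 was low in every male and did not pass the test under any diet. Its levels were 8.37, 2.84, 1.27 and 3.13 CPM in Control 1, 3, 4 and 5, and 1.68, 7.83 and 0.474 CPM in IleR 13, 14 and 17. LeuR 19, 20 and 21 had 5.46, 0.768 and 4.74 CPM. ValR 7, 9, 10 and 12 had 1.58, 1.01, 1.71 and 0.510 CPM. ValR 9 and ValR 12 were below all 4 Control libraries, and the other 2 were below 3 of them. The edgeR log2 fold changes were -0.20 (SE 0.83, adjusted p = 0.907) for IleR, -0.07 (SE 0.83, adjusted p = 0.968) for LeuR and -1.69 (SE 0.82, adjusted p = 0.159) for ValR. The males held between 8 and 208 counts of this gene, and its levels ranged 16.5-fold within the IleR group. Among the markers of neurons that use Slc17a8, 2 of 4 cholinergic genes were called higher under each diet and 3, 2 and 0 of 5 serotonin neuron genes in IleR, LeuR and ValR, beside 6.63%, 3.81% and 11.1% of all genes. These counts rested on single libraries: without Control 4 the cholinergic counts were 0, 2 and 0 and the serotonin counts 4, 3 and 1, and without Control 3 or without Control 5 the cholinergic count was 0 under each diet. The serotonin count was 0 in IleR without IleR 14 and 0 in LeuR without Control 1, 3 or 5 or LeuR 19. Of 4 cholecystokinin interneuron genes, 2 were called lower under each diet, beside 8.67%, 6.33% and 12.4% of all genes, and 1 higher in ValR, the latter lost without Control 4 and without 6 other males in turn.

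**Figure D2:**
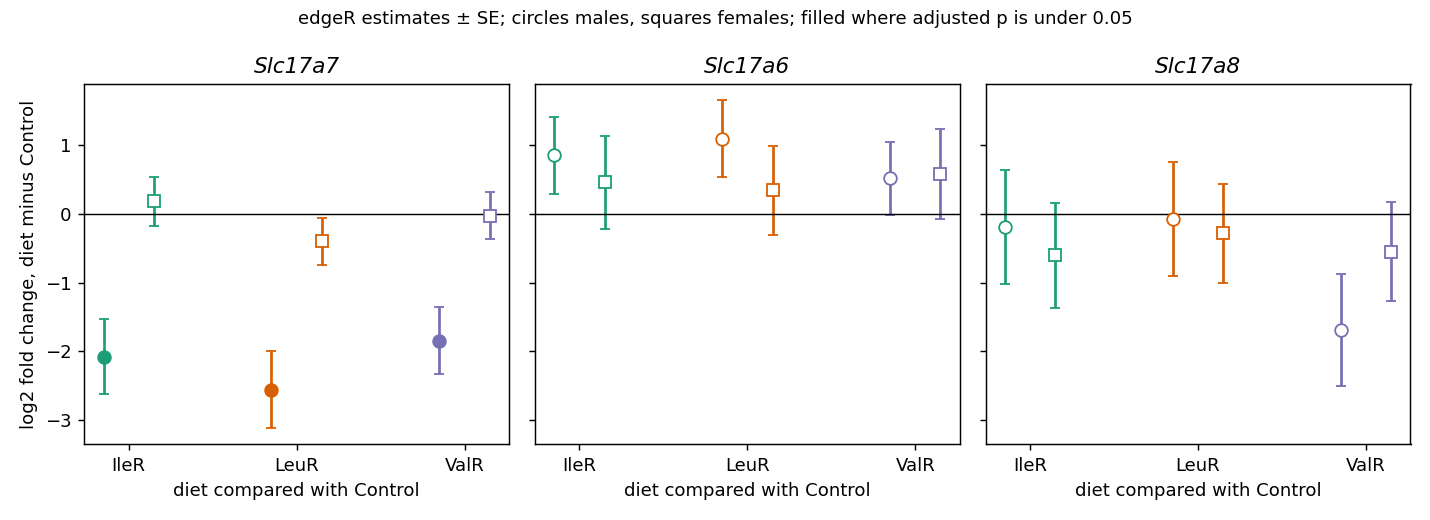
Log2 fold change of each restricted diet against Control from edgeR, with bars of 1 SE, for males (circles) and females (squares); filled symbols have an adjusted p under 0.05. The 3 male estimates of Slc17a7 lie between -2.55 and -1.84 and are the only filled symbols.

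Slc17a7 and Slc17a6 were next compared within each library as a ratio of per-kilobase levels, which does not depend on the scaling between libraries. Slc17a7 exceeded Slc17a6 by 37.1-fold in Control 1, 34.8-fold in Control 3, 20.0-fold in Control 5 and 2.14-fold in Control 4. In the 10 restricted males this ratio ran from 0.264 in LeuR 21 to 3.52 in ValR 10. Slc17a6 was the more abundant form in LeuR 21, LeuR 19 and IleR 14, although IleR 14 was near equality, with a ratio of 0.985, and fell to the other side when the longest transcript was taken as the length. As a share of the family's summed per-kilobase level, Slc17a7 made up 96.7%, 97.0%, 68.1% and 94.9% in Control 1, 3, 4 and 5 and between 20.5% and 77.7% in restricted males. Control 4 was the one Control library inside the restricted range.

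The log2 ratio of Slc17a6 to Slc17a7 averaged -3.94 ± 1.93 in Control-fed males (SD, n = 4) and -0.48 ± 1.28 in the 10 restricted males (SD, n = 10), a difference of 3.46. The two-sided exact permutation test gave p = 0.0050 and an adjusted p of 0.0400 over the 8 comparisons of this ratio. By diet, IleR differed from Control by 3.37, LeuR by 4.45 and ValR by 2.77, each with an exact permutation p of 0.0857 (adjusted p = 0.171), where the smallest p these group sizes allow is 0.0286. The pooled call was lost without Control 1, Control 3 or Control 5 (difference 3.03 to 3.33, exact permutation test, adjusted p = 0.140) and without IleR 13, IleR 14, LeuR 19, LeuR 21, ValR 7 or ValR 9 (3.19 to 3.51, adjusted p = 0.0559). It passed without any 1 of the other 5 males.

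**Figure D3:**
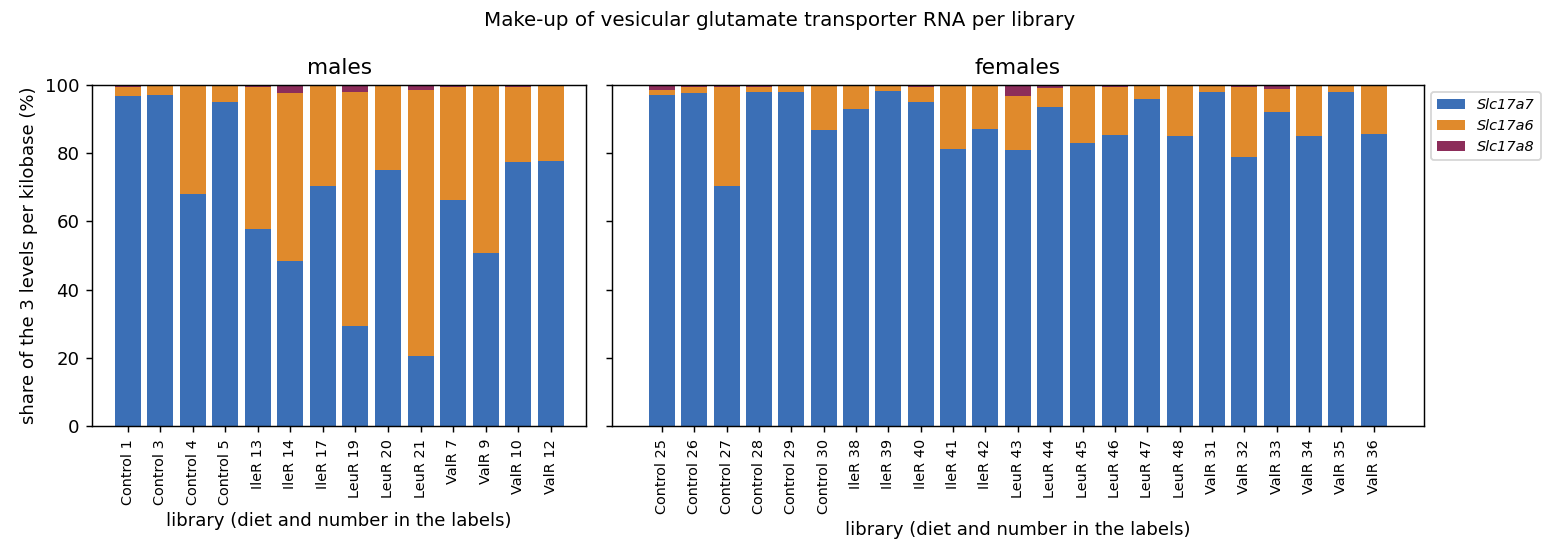
Share of the summed per-kilobase level of the 3 transporters taken by each gene, 1 bar per library, in males and females. Slc17a7 takes 94.9% to 97.0% in 3 of 4 Control-fed males, 20.5% to 77.7% in restricted males and 70.2% to 98.3% in females.

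The brain-region markers of the same male libraries also differed between Control and the restricted diets. The summed level of 10 forebrain markers was 327 to 815 CPM in Control-fed males against 41.4 to 219 CPM in restricted males, with Emx2 and Fezf2 at or under 3 counts in every ValR library. Over all genes 8.67%, 6.33% and 12.4% were called lower and 6.63%, 3.81% and 11.1% higher in IleR, LeuR and ValR. Of these 10 genes 7, 5 and 8 were called lower in the same order (4 to 8, 3 to 7 and 8 with each library left out in turn, lowest without IleR 14 or IleR 17 in IleR and without Control 3 in LeuR). The 10 cerebellar granule cell markers summed to 119 to 191 CPM in Control-fed males and 301 to 4623 CPM in restricted males, with 9, 6 and 9 called higher (7 to 10, 5 to 8 and 9 to 10). Of 11 brainstem and spinal cord markers, 9 were at or under 3 counts in every Control library, while 5, 8 and 10 were called higher (3 to 6, 1 to 10 and 10), the LeuR count being 1 without LeuR 19 and the IleR count 3 without Control 1, 3 or 5 or IleR 13 or 14. Compared with every Control-fed male, all 10 restricted males had less Slc17a7, a lower summed CPM of forebrain markers and a higher summed CPM of granule cell markers. Excitatory neurons of the cortex and hippocampus and granule cells all use Slc17a7, and the part of each in its level was not tested. On the mean log2 CPM of the granule cell markers, LeuR 21 (2.37) was below Control 4 (2.52).

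A hindbrain score, the mean log2 CPM of the cerebellar and brainstem markers minus that of the forebrain markers, lay between -5.70 and -3.48 in Control-fed males and between -1.34 and 6.26 in restricted males. The scores of the 2 sets did not overlap, so the diets and the region markers cannot be told apart in males. With the score as a covariate, the edgeR log2 fold changes of Slc17a7 were -0.90, -1.65 and -0.43 (adjusted p = 0.929, 0.839 and 0.970), in the order IleR, LeuR and ValR. That fit called 1, 9 and 0 genes in all, or 0.00451%, 0.0405% and 0.0%. LeuR 21, which had the lowest Slc17a7 of all males, had the restricted score closest to Control, at -1.34. It also had the highest Slc17a6 of all males, at 259 CPM, and the score holds no thalamus markers. The part of tissue make-up in these levels was not tested.

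Between the restricted diets, no difference in a transporter passed the test in males. For Slc17a7 the edgeR log2 difference was 0.48 for IleR minus LeuR (SE 0.54, adjusted p = 0.771), 0.23 for ValR minus IleR (SE 0.51, adjusted p = 1.00) and 0.71 for ValR minus LeuR (SE 0.52, adjusted p = 0.430). The last passed only without LeuR 20, at 1.93 (edgeR, adjusted p = 0.0278). Slc17a6 differed by -0.24, -0.34 and -0.58 and Slc17a8 by -0.13, -1.49 and -1.61 in the same 3 contrasts, with adjusted p-values from 0.270 to 1.00. Over all genes, edgeR called 0, 0 and 604 of 22197, or 0.0%, 0.0% and 2.72% (1.7% higher and 1.02% lower in ValR). The first 2 contrasts held 2512 and 628 genes at an unadjusted p under 0.05, with Slc17a7 not among them, and DESeq2 called 80 higher and 28 lower in the first and 7 in the second while limma called 0 in both.

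In females, no transporter passed the test under any diet. Slc17a7 had a median of 1104 CPM in Control (505 to 1279), 659 CPM in LeuR (331 to 1491) and 841 CPM in ValR (578 to 1436), and the 5 IleR-fed females had 1328, 1447, 1138, 526.1 and 953 CPM in IleR 38 to 42. In complete separation from Control stood 0.251%, 0.216% and 0.128% of all genes in the IleR, LeuR and ValR comparisons (0.143%, 0.0836% and 0.0541% below it), and none of the 3 transporters. The lowest values, 331 and 353 CPM in LeuR 45 and LeuR 43, were the only female values under the lowest Control-fed female. Its edgeR log2 fold changes were 0.18 (SE 0.36) for IleR, -0.40 (SE 0.34) for LeuR and -0.03 (SE 0.34) for ValR, with adjusted p-values from 0.968 to 1.00.

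Slc17a6 in females spanned a wide range within Control, IleR and ValR and a narrower one within LeuR. The Control-fed females had a median of 22.8 CPM (16.1 to 218), with Control 27 at 218 CPM and Control 30 at 77.5 CPM above the other 4. The IleR-fed females had 94.9, 19.7, 53.9, 121 and 137 CPM, and the medians were 68.5 CPM in LeuR (49.2 to 127) and 75.0 CPM in ValR (22.4 to 202). The restricted diets thus had higher medians than Control, but their libraries overlapped it fully. The edgeR log2 fold changes were 0.46 (SE 0.67), 0.34 (SE 0.65) and 0.58 (SE 0.65) in the order IleR, LeuR, ValR, and the adjusted p-values lay between 0.968 and 1.00.

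Slc17a8 in females ran from 0.150 CPM in Control 30, which rests on 2 counts, to 13.0 CPM in Control 25, both in the Control group. The medians were 5.6 CPM in Control, 3.74 in IleR, 3.40 in LeuR and 3.31 in ValR. The edgeR log2 fold changes of -0.61 (SE 0.76), -0.29 (SE 0.72) and -0.55 (SE 0.72) had adjusted p-values from 0.971 to 1.00. For all 3 diets edgeR called 0 of 20344 genes in females (0.0%), with 577, 819 and 777 genes at an unadjusted p under 0.05 in the IleR, LeuR and ValR comparisons in which Slc17a7 was fitted. DESeq2 called 8, 1 and 0 genes and limma 1, 0 and 0, none of them a transporter.

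The ratio of the 2 main forms varied widely among Control-fed females. Slc17a7 exceeded Slc17a6 per kilobase by 2.42-fold in Control 27 and by 73.1-fold in Control 28, and the range over the 17 restricted females was 3.83 to 73.5. The log2 ratio of Slc17a6 to Slc17a7 was higher than Control by 0.75 in IleR, 1.54 in LeuR and 0.88 in ValR, with exact permutation p-values of 0.496, 0.113 and 0.442 and adjusted p-values from 0.180 to 0.496. In no female did Slc17a6 exceed Slc17a7.

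**Figure D4:**
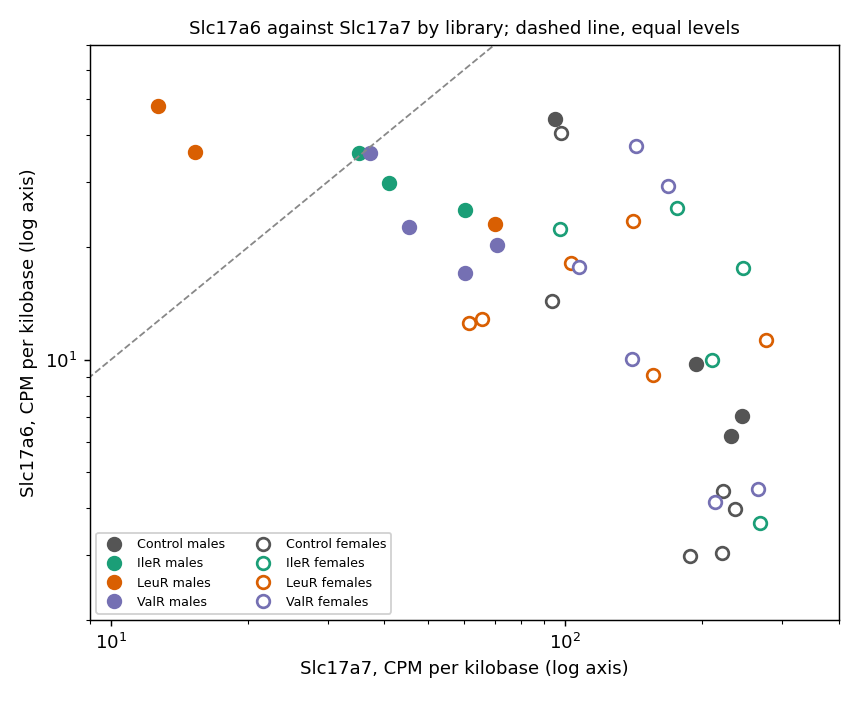
Slc17a6 against Slc17a7 in every library as CPM per kilobase on log axes, with males filled, females open and a dashed line where the 2 genes are equal. Restricted males lie left of 71 on the Slc17a7 axis and near the line, whereas 21 of the 23 females lie right of 71.

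The difference between the sexes was tested in 1 edgeR fit of all 37 libraries. The edgeR log2 fold change of Slc17a7 in males minus that in females was -2.25 (SE 0.64, adjusted p = 0.0843) under IleR, -2.12 (SE 0.63, adjusted p = 0.152) under LeuR and -1.83 (SE 0.59, adjusted p = 0.0640) under ValR. None passed. Over all genes 0.0979%, 0.00445% and 4.25% passed, with 0.0979%, 0.0% and 3.57% lower and 0.0%, 0.00445% and 0.677% higher in males. DESeq2 gave -2.27, -2.14 and -1.82 with adjusted p-values of 0.0156, 0.0303 and 0.0265, which pass. Without Control 4 of the males the edgeR test passed as well, with adjusted p-values of 0.0333, 0.0428 and 0.0416. The share of all genes called is not given for the DESeq2 fit or for the fit without Control 4. Whether Slc17a7 stands out in them therefore cannot be told. For Slc17a6 and Slc17a8 the adjusted p-values of the interaction in edgeR ran from 0.561 to 0.962.

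Among females, the transporter levels were compared with the markers of the regions and cells that use them. The 23 females fell into 2 sets by cerebellar granule cell marker level, 15 low and 8 high with 2 of each diet among the high. By Slc17a6 itself they fell into 7 low and 16 high. That split was uneven by diet, with all LeuR-fed females but only Control 27 and Control 30 of the Control-fed females among the high. Relations that involve these levels were therefore tested within each set only, and values over all females are given for them as descriptions. In all, 32 relations were computed, of which 8 passed after adjustment. Slc17a7 followed the forebrain markers over all 23 females with a Pearson r of 0.85 (permutation p = 1e-05, adjusted p = 0.00016) and a Spearman rho of 0.95 (permutation p = 1e-05, adjusted p = 0.00016), where 1e-05 is the smallest p that the permutations can give. Without the 2 females farthest from the median, LeuR 43 and LeuR 45, r was 0.89, and after subtraction of each diet's mean it was 0.81.

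Slc17a8 followed the cholinergic neuron markers (Chat, Slc18a3, Slc5a7 and Isl1) with r of 0.83 and rho of 0.85 over 23 females (permutation p = 1e-05 and adjusted p = 0.00016 for both), and r was 0.78 without Control 25 and LeuR 43 and 0.85 within diets. Its relations to the markers of the other neurons that use it did not pass, with r of 0.10 and rho of 0.04 for 4 serotonin neuron genes (permutation test, adjusted p = 0.782 and 0.922) and r of 0.35 and rho of 0.22 for 4 cholecystokinin interneuron genes (adjusted p = 0.185 and 0.471). Within the 8 females high in granule cell markers, Slc17a8 fell as those markers rose, with r of -0.92 (exact permutation p = 0.00057, adjusted p = 0.00456) and rho of -0.90 (exact permutation p = 0.00456, adjusted p = 0.0365). In the 15 low females r was -0.45 (permutation p = 0.0897, adjusted p = 0.185) and rho was -0.51 (permutation p = 0.0572, adjusted p = 0.163). Without Control 30 and IleR 40, the 2 farthest from the median, r in the high females was -0.87. Median Slc17a8 was 1.13 CPM (0.150 to 5.00) in the high females and 4.56 CPM (2.32 to 13.0) in the low females.

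Slc17a7 showed the same sign in the 8 high females, with r of -0.85 (exact permutation p = 0.00739, adjusted p = 0.0314) and rho of -0.88 (exact permutation p = 0.00724, adjusted p = 0.0461) against the granule cell markers, and r of -0.93 without the same 2 libraries. In the 15 low females r was -0.42 (permutation p = 0.121, adjusted p = 0.203) and rho was -0.41 (permutation p = 0.129, adjusted p = 0.259). Purkinje cell markers split the females likewise, and in the 8 high females r was -0.91 for Slc17a7 and -0.84 for Slc17a8 (adjusted p = 0.0204 in both exact permutation tests). In the 15 low females r was -0.56 for Slc17a7 (permutation test, adjusted p = 0.0976) and 0.10 for Slc17a8 (adjusted p = 0.837). The sign for Slc17a7 was not shared by the males, as a description: after subtraction of diet means, r with the granule cell and Purkinje cell markers was 0.55 and 0.69 over 14 males and -0.52 and -0.54 over 23 females, while for Slc17a8 it was -0.53 and -0.47 in males and -0.85 and -0.83 in females. The difference between the sexes was not tested.

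Of the 11 brainstem and spinal cord markers only 2, Hoxb4 and the glycine transporter Slc6a5, were kept in females, so this level rests on 2 genes. Slc17a8 fell as it rose, with r of -0.75 (permutation p = 6e-05, adjusted p = 0.00064) and rho of -0.77 (permutation p = 9e-05, adjusted p = 0.00096) over 23 females, and r was -0.72 without LeuR 45 and ValR 36, the 2 farthest from the median. For Slc17a7 r was -0.54 (permutation p = 0.00786, adjusted p = 0.0314) and rho -0.52 (permutation p = 0.0115, adjusted p = 0.0461), but r was -0.36 without the same 2 libraries, and it no longer passed with library totals or without the Control-fed females.

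The relation of Slc17a6 to the thalamus markers could be tested only within its own low and high sets, which leaves little of its range. Over all 23 females r was 0.69 after subtraction of each diet's mean, given as a description because the libraries fell into separate sets. In the 16 females high in Slc17a6 r was 0.43 (permutation p = 0.0959, adjusted p = 0.185) and rho 0.44 (permutation p = 0.0912, adjusted p = 0.195). In the 7 females low in Slc17a6 r was -0.71 (exact permutation p = 0.0335, adjusted p = 0.0976) and rho -0.71 (exact permutation p = 0.0881, adjusted p = 0.195). Slc17a6 and Slc17a7 had an r of -0.57 over 23 females after subtraction of diet means, on the same footing, and in the 16 high females an r of -0.07 (permutation p = 0.800, adjusted p = 0.837) and rho of -0.09 (permutation p = 0.755, adjusted p = 0.833). All these relations share libraries and library depth, and the part of tissue make-up in them was not tested.

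**Figure D5:**
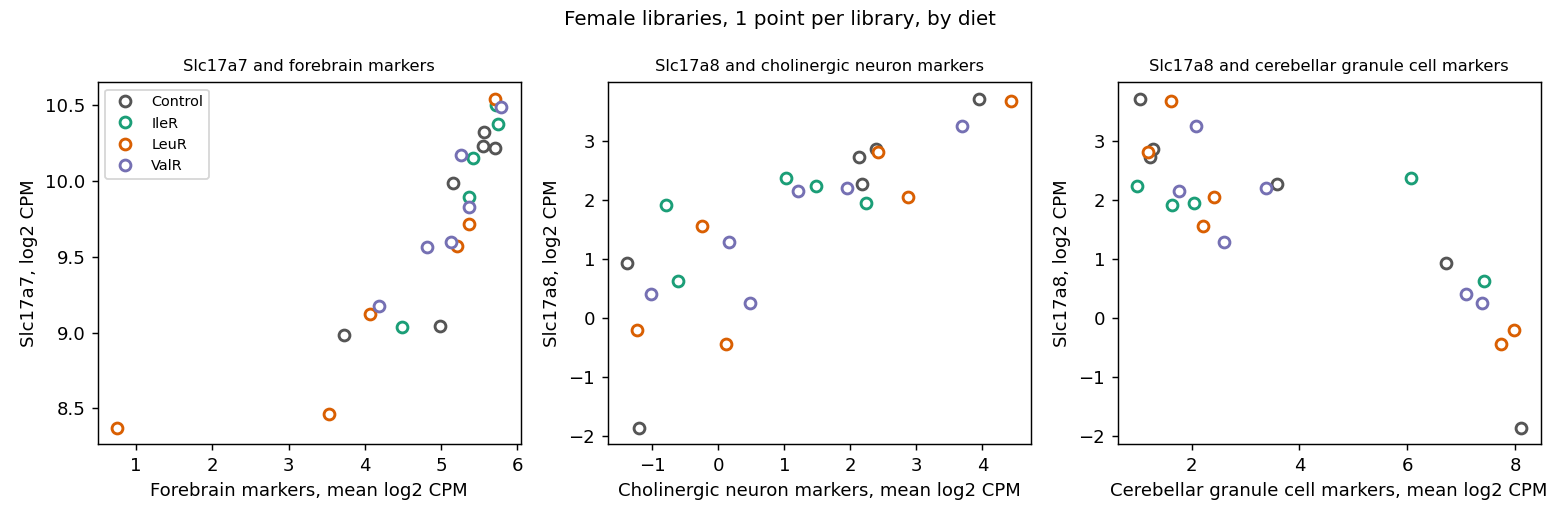
Log2 CPM of Slc17a7 against the mean log2 CPM of forebrain markers, and of Slc17a8 against cholinergic neuron and cerebellar granule cell markers, in 23 female libraries coloured by diet. The granule cell markers split the females into 15 with levels up to 3.59 and 8 with levels from 6.07.

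The genes that work beside the transporters were read from lists of pathway genes in males. The other vesicular transporters load inhibitory, cholinergic and monoamine transmitters. Among these 4 genes 1, 2 and 2 were higher in IleR, LeuR and ValR and 0 were lower, against 6.63%, 3.81% and 11.1% of all genes higher. Slc18a3, the vesicular acetylcholine transporter, rose by 3.07, 3.90 and 3.03 on the log2 scale (adjusted p = 0.0485, 0.0263 and 0.0327 in edgeR), but these calls rested on single libraries. With 1 of the 14 males left out at a time, the IleR call of Slc18a3 was lost in 10 fits, the LeuR call in 4 and the ValR call in 6, with adjusted p-values up to 0.152, 0.0841 and 0.0894. Without Control 4 its adjusted p was 0.0858, 0.0366 and 0.0704, and the IleR call was also lost with DESeq2 size factors (0.0502). Slc32a1, the vesicular transporter of GABA and glycine, rose by 0.65 in LeuR (adjusted p = 0.0276) and 0.54 in ValR (adjusted p = 0.0245) in edgeR, and these calls were lost in 4 and 5 of the 14 fits but passed without Control 4. Of 6 other members of the SLC17 family, 4 had at most 3 counts in every male library, and Slc17a5 and Slc17a9 were tested and not called.

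The plasma membrane transporters that clear glutamate from the synapse moved in both directions. Slc1a2, the main astrocyte transporter, fell by 0.97, 0.95 and 1.08 on the log2 scale in IleR, LeuR and ValR, with edgeR adjusted p-values of 0.0166, 0.0270 and 0.00336. Slc1a1, a neuronal transporter, fell by 0.91, 0.54 and 1.00 (adjusted p = 0.00118, 0.0200 and 0.000145 in edgeR). Slc1a6, the transporter of Purkinje cells, rose by 2.97, 1.75 and 3.36 (adjusted p = 0.00177, 0.0350 and 0.000316 in edgeR) and is also 1 of the 8 Purkinje cell markers, of which 7, 5 and 8 were higher, the LeuR count being 2 without Control 3 or LeuR 20, beside 6.63%, 3.81% and 11.1% of all genes higher. With 1 male left out at a time, all ValR calls of these 3 genes and the IleR calls of Slc1a1 and Slc1a6 passed in all 14 fits, whereas the IleR call of Slc1a2 was lost in 4 fits and the LeuR calls of Slc1a2, Slc1a1 and Slc1a6 in 5, 3 and 7. Slc1a3 and Slc1a7 were not called. Of 10 genes of glutamate synthesis and the glutamine cycle, Slc38a1, a glutamine transporter, rose by 0.79 in IleR and 0.77 in ValR, Slc38a2 rose by 0.61 in ValR, Got1 fell by 0.37 in IleR, and 0 were called in LeuR, where 3.81% of all genes were higher and 6.33% lower. The IleR count of 1 higher and 1 lower and the ValR count of 2 higher were near the shares of all genes called in either direction, 15.3% and 23.5%. The LeuR count was 2 higher and 1 lower without Control 4 (7.9% and 9.75% of all genes in that fit), with Slc38a1 at 0.48 (edgeR, adjusted p = 0.0217), and 1 higher with library totals. Both calls of Slc38a1 passed in all 14 fits with a male left out, while those of Slc38a2 and Got1 were each lost in 6, and Got1 also with library totals (0.125).

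The vesicular proton pump makes the gradient on which the transporters run. Of its 14 genes, 8, 1 and 10 were called lower in IleR, LeuR and ValR and 0 higher, beside 8.67%, 6.33% and 12.4% of all genes called lower, so the LeuR count was near the background. The list had medians of -0.34, -0.18 and -0.30 on the log2 scale beside 0.04, 0.05 and 0.03 over all genes. Atp6v1g2, the subunit form of neurons, fell by 0.72, 0.48 and 0.71, and Atp6v1d fell by 0.57 in IleR and 0.59 in ValR. With library totals in place of TMM, 6, 1 and 6 were lower and 1 was higher in LeuR, since that scaling shifted the median of all genes by 0.13, 0.10 and 0.09 and turned the calls over all genes from 1472 higher and 1925 lower to 2425 and 1458 in IleR, from 845 and 1404 to 1232 and 1087 in LeuR, and from 2469 and 2743 to 3299 and 2246 in ValR. Without Control 4, the pump counts were 8, 3 and 10 lower, with 1 higher in LeuR, and without LeuR 19 no pump gene was called in LeuR. The IleR and ValR calls of both named subunits passed without each male in turn. Slc17a7 stayed lower under each scaling, with log2 fold changes from -2.56 to -1.73.

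Among 13 synaptic vesicle proteins, 7, 4 and 7 were lower and 1, 1 and 3 higher in IleR, LeuR and ValR (lower in 5 to 7, 1 to 6 and 5 to 7 with a male left out, the LeuR count being 1 without LeuR 19). Over all genes 8.67%, 6.33% and 12.4% were lower and 6.63%, 3.81% and 11.1% higher, and with 13 genes a single call is near those shares. Syt1, the calcium sensor of forebrain synapses, fell by 1.54, 1.37 and 1.83 on the log2 scale, while Syt2, its counterpart in the hindbrain, rose by 1.87 in IleR and 2.19 in ValR. Sv2b fell by 1.30, 1.30 and 0.98, while Sv2c rose by 1.59 in LeuR and 1.58 in ValR. Without each male in turn, the Syt1 calls and the ValR calls of Syt2 and Sv2c passed, whereas Syt2 in IleR and Sv2c in LeuR were each lost in 6 of 14 fits and Sv2b in 1, 2 and 1. With the hindbrain score as a covariate, 0 genes of these pathway lists were called under any diet in edgeR, which is no result about the lists, since that fit called 0.00451%, 0.0405% and 0.0% of all genes.

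The genes whose levels were most alike each transporter were ranked by Pearson's r of log2 CPM after subtraction of each diet's mean, among 13995 genes in 14 males and 13884 genes in 23 females. For Slc17a7 these were C230057M02Rik (0.95), Purg (0.95) and Ephx4 (0.95) in males and Dlgap1 (0.97), Olfm1 (0.96) and Sv2b (0.96) in females. In the sex that was not used for the choice, r was 0.37, 0.62 and 0.92 for the first 3 and 0.85, 0.75 and 0.94 for the second. For Slc17a6 they were Sparc (0.98), Gpr179 (0.97) and Rmst (0.96) in males and Sfrp5 (0.92), Epb41l4a (0.92) and Slc6a11 (0.92) in females, with r from 0.74 to 0.95 in the other sex. For Slc17a8 they were Gm1821 (0.86), Crh (0.85) and Borcs6 (0.84) in males and Fndc3b (0.97), Oprk1 (0.96) and Pdyn (0.96) in females, with r from 0.27 to 0.87 in the other sex. These are the highest of many values and are given as a description.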

How the data were processed

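The authors deposited RSEM expected counts per gene, 1 table per sex, after alignment to GRCm38 as the study's methods describe (aligner not given in the sources used here), and all 37 values of each transporter were whole. Whether the 10 male libraries not analysed here are those the study left out as outliers was not determined. The labels and the methods differ on poly(A) or total RNA and on the tissue, with liver in the extraction protocol, brain as the source, and left hemisphere as the RNA source in the study's methods. The authors' deposited log2 fold changes and p-values (limma after TMM and voom) were not used. Counts were rounded, genes were kept where 1 or more diet groups had no library at 0 (22197 in males, 20344 in females, 22465 for both), and edgeR 4.0.16 (R 4.3.3) was fitted per sex over all 4 diets with TMM scaling, its quasi-likelihood test and adjustment at 0.05. Levels per kilobase used the union of GENCODE M21 exons. Ratios and correlations were tested by permutation (scipy 1.17.1). DESeq2 1.42.0, limma 3.58.1, other scalings, filters and left-out libraries were alternatives, and the fits were tested on simulated data. Named pathway genes were all called reuptake and vesicular transporter genes and, in other lists, those with the largest changes. The members and lists were chosen with earlier results of these data known, and the sets of females, the list counts without Control 4, those with other males left out and those under other scalings were defined after the values were seen. Depth was 10672599 to 25722333 counts, of which 2 to 227 fell on Slc17a8.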

Additional observations from a re-analysis of the deposited data

Results flagged for a closer look

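Of 24 groups of 4 to 6 libraries examined, 1 held a library far from the rest, a number that chance alone can give since about 1 in 20 groups is marked. In IleR-fed females, Slc17a8 was at 0.628 log2 CPM in IleR 41, against 1.90 in the nearest of the other libraries, a gap of 0.735 of the group's range. IleR 41 was also the lowest IleR-fed female for Slc17a7, at 526.1 CPM.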

How the results depend on the processing

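No paired analysis was possible because every library number in the labels occurs once. Of the results recomputed, 1448 values under alternatives kept their direction and side of the threshold. That count includes results that passed neither in the main analysis nor under the alternative, so it does not measure how stable the calls were. In males, the Slc17a7 changes of -0.90 (IleR), -1.65 (LeuR) and -0.43 (ValR) with the hindbrain score as a covariate no longer passed, nor did LeuR in a fit of 2 groups (-2.54). The score also turned Slc17a6 to -0.090 in IleR and -0.66 in ValR. Slc17a8 in LeuR-fed males turned to 0.045 with library totals and 0.0010 with limma. In females the score gave 0.19 for Slc17a8 in LeuR and 0.018 for Slc17a7 in ValR. In limma, Slc17a7 in ValR-fed females was 0.013, and between restricted females Slc17a8 was 0.32 (IleR minus LeuR), -0.14 (ValR minus IleR) and 0.18 (ValR minus LeuR) and Slc17a6 -0.10, -0.068 and -0.17. Males minus females, DESeq2 called Slc17a7 (-2.27, -2.14 and -1.82), and limma gave -0.46 for Slc17a8 in IleR and 0.038 for Slc17a6 in ValR. None of these turned values passed. The cause was not tested.

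Without the Control-fed females, r with the granule cell and Purkinje cell markers in the high sets was -0.85 and -0.97 for Slc17a7 and -0.95 and -0.78 for Slc17a8, and r of Slc17a7 with the brainstem markers was -0.55 (-0.51 with library totals). These 5 no longer passed with fewer libraries, nor the last with library totals, and 5 further relations had too few to compute. Slc17a6 and the pan-neuronal genes in the low set gave 0.022 with library totals. With the longest transcript as length, Slc17a7 per kilobase was 336 (Control), 79.6 (IleR) and 93.5 (ValR) in males and 310, 350.2, 235 and 303 in Control-, IleR-, LeuR- and ValR-fed females, and Slc17a6 was 39.4 in IleR-fed males.

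Leaving out 1 library at a time gave these ranges. In males against Control, Slc17a7 ran from -2.34 to -1.92 (IleR) and -3.78 to -2.15 (LeuR), Slc17a6 from 0.57 to 1.98, 0.81 to 2.22 and 0.24 to 1.64 (ValR), Slc17a8 from -1.85 to 0.48 (IleR) and -0.47 to 0.61 (LeuR), and the pooled ratio difference from 3.03 to 4.40. Between restricted males, Slc17a8 ran from -1.78 to 0.37 (IleR minus LeuR) and -1.98 to 0.17 (ValR minus IleR), Slc17a6 from -0.48 to 0.021 (IleR minus LeuR) and Slc17a7 from 0.32 to 1.93 (ValR minus LeuR). In females, Slc17a8 ran from -0.91 to 0.16 (LeuR) and Slc17a7 from -0.20 to 0.076 (ValR). Between restricted females, Slc17a8 ran from -0.55 to 0.30 (IleR minus LeuR), -0.45 to 0.25 (ValR minus IleR) and -0.77 to 0.35 (ValR minus LeuR), and Slc17a6 from -0.12 to 0.37, -0.27 to 0.36 and -0.15 to 0.44. Males minus females, Slc17a7 ran from -2.50 to -2.10 (IleR), -3.35 to -1.73 (LeuR) and -2.02 to -1.67 (ValR), Slc17a6 from -0.62 to 1.52, -0.26 to 1.88 and -1.06 to 1.08, and Slc17a8 from -1.25 to 1.10 (IleR) and -0.21 to 0.92 (LeuR). The edgeR sex difference in Slc17a7 passed without male Control 4 in each diet, without female IleR 41 in IleR (adjusted p = 0.0371), without male LeuR 20 in LeuR (0.0291) and ValR (0.0412), and without female ValR 36 or LeuR 47 in ValR (0.0408 and 0.0493). Slc17a8 rested on 2 to 227 counts a library.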
